A study of Mus musculus with 24 samples.

Results

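Inguinal white adipose tissue (iWAT) of control mice was compared with the liver, the gastrocnemius muscle (GM) and the hypothalamus of control mice by RNA-seq. The libraries were chosen by their labels alone: 3 iWAT Ctrl libraries were set against 9 Ctrl libraries, 3 from each other tissue, out of 24 libraries in the series. All 12 came from C57BL/6 mice with the genotype Crif1flox/flox that were fed chow and were 8 weeks old, so both alleles of Crif1 were floxed in every library used and the labels name no Cre for these controls. The 12 libraries of mice with a liver knockout of Crif1 (LKO) were not used here. The labels do not say whether 1 mouse gave several tissues, nor whether the inguinal lymph node was taken out of the fat, so p-values measure the spread between these samples only.

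White fat stores triglyceride in a single large droplet in each adipocyte and releases it as fatty acids and glycerol when lipases are activated. Adipocytes also secrete hormones, among them adiponectin and leptin, and they lie in a stroma of progenitor cells, matrix, vessels and macrophages. The inguinal depot is the main subcutaneous depot of the mouse hind body. It lies against skin and mammary tissue, encloses a lymph node and can hold beige adipocytes, which burn fat for heat.

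The 12 libraries held 4.47 to 8.09 gigabases each by the ratio of deposited coverage to FPKM (fragments per kilobase of transcript and per library size), and between 12024 and 12303 genes reached 1 FPKM in the iWAT libraries. On log2(FPKM + 1), libraries of 1 tissue correlated at 0.9898 or more across genes and libraries of different tissues at 0.8385 at most. The label was borne out by its marker. Adipoq, which encodes the adipocyte hormone adiponectin, stood at 3036, 2784 and 2902 FPKM in iWAT 1, 2 and 3, against at most 0.25 in liver, 39.1 in GM and 0.0648 in hypothalamus. Some libraries stood apart within their tissue. iWAT 1 had the highest level of all 20 skeletal muscle genes listed, iWAT 2 had the highest level of 16 of 18 macrophage genes tested, and GM 1, GM 3 and Hypothalamus 3 held more liver transcript than their partners (Alb at 167, 125 and 11 FPKM, against 13.7 in GM 2 and 0.301 or less in Hypothalamus 1 and 2). In tissue pieces such as these, fewer cells of a type and less RNA per cell cannot be told apart.

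A gene was called against every other tissue when its iWAT mean differed in the same direction from each of the 3 other means at a limma adjusted p below 0.05 and by at least 1 on the log2(FPKM + 1) scale from the nearest of them. Of 15320 genes tested, 1340 (8.75%) were higher in iWAT than in every other tissue and 57 (0.372%) were lower than in every other tissue. The tissue nearest to iWAT was the hypothalamus for 511 of the 1340, GM for 470 and the liver for 359. The difference from the nearest tissue had a median of 1.74 over the 1340 genes, was 2 or more for 526 of them, and was 4 or more for 70. In the libraries themselves, all 3 iWAT values lay above all 9 others for 3033 genes (19.8%) and below all 9 for 363 (2.37%). Of the genes called, 1 higher gene and 0 lower genes had overlapping values. A gene that reached the filter on low values (1 FPKM in 3 libraries) through iWAT alone was bound to lie higher there, though not always far enough for a call. Such genes were 307 of those tested and 235 of the 1340, so counts among tested members of a list are descriptions.

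**Figure D1:**
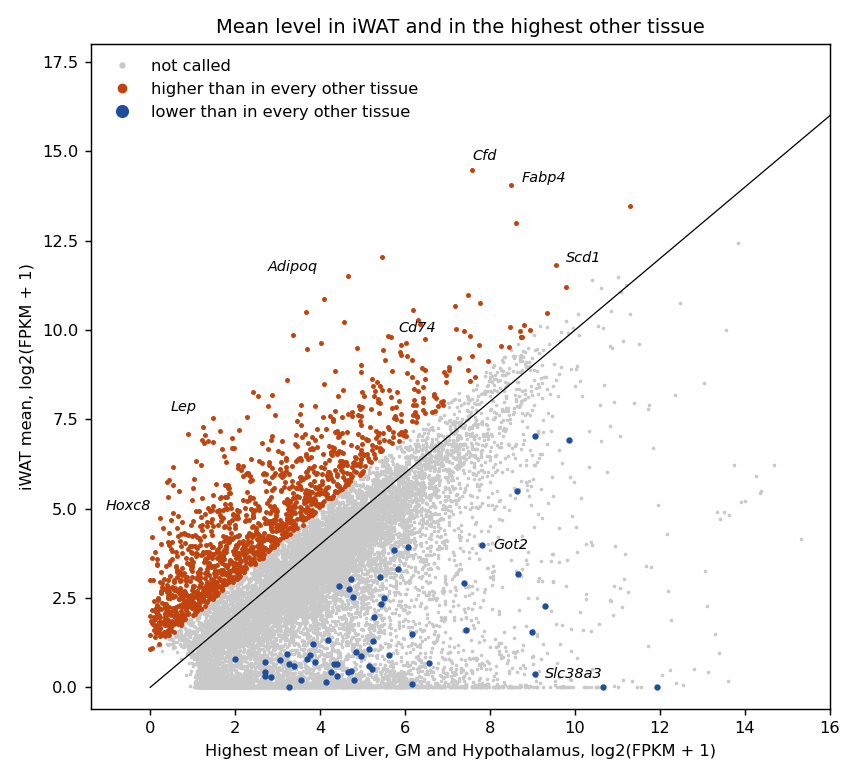
Each point is a gene, with the highest mean of liver, GM and hypothalamus on the x axis and the iWAT mean on the y axis, both as log2(FPKM + 1); colours mark the genes called higher or lower than every other tissue. The 1340 higher genes reach up to Cfd and Fabp4 at the top of the iWAT axis, while the 57 lower genes, Slc38a3 and Got2 among them, lie below the diagonal.

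The pairwise comparisons share the iWAT libraries and are therefore given side by side only. Against liver, 4986 genes were higher (32.5%) and 1294 lower (8.45%). Against GM, 4742 were higher (31.0%) and 1236 lower (8.07%). Against hypothalamus the balance was the other way, with 2483 higher (16.2%) and 4391 lower (28.7%). Against the mean of the 3 tissues, 2963 were higher (19.3%) and 2012 lower (13.1%). These splits moved with the scaling of the libraries. So did the 1340 genes higher than every other tissue, which became 915 after median-ratio scaling and 1007 after quantile normalisation. The share of calls that were higher against liver was 79.4% on the deposited FPKM, 53.4% after median-ratio scaling and 56.9% after quantile normalisation. Against GM it was 79.3%, 52.9% and 53.9%, against hypothalamus 36.1%, 42.2% and 50.5%, and against the mean of the 3 tissues 59.6%, 45.4% and 49.3%. The median difference of all genes on the deposited FPKM was 0.61 against liver, 0.48 against GM, -0.27 against hypothalamus and 0.20 against their mean, whereas it was at most 0.19 in size after median-ratio scaling and quantile normalisation. On the deposited TPM the medians were further from 0, at 0.87 against liver, 0.61 against GM, -0.56 against hypothalamus and 0.24 against their mean, and 84.3%, 80.7%, 28.8% and 56.9% of calls were higher. The 10 most abundant transcripts took 16.1 to 17.5% of all FPKM in iWAT, 23.0 to 24.5% in liver, 33.5 to 35.2% in GM and 3.9 to 5.0% in hypothalamus.

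The 20 genes with the largest difference from the nearest tissue were led by secreted products of adipocytes and by proteins of the lipid droplet. Cfd, which encodes adipsin, a protease of the alternative complement pathway, was the most abundant transcript of iWAT, with 4.74% of all FPKM. Its levels were 20859, 21643 and 25333 FPKM in iWAT 1, 2 and 3, 192, 324 and 57.6 in GM, at most 2.24 in liver and at most 0.0397 in hypothalamus. The difference of Cfd from GM was 7.19 ± 0.47 (SE; limma adjusted p = 2.4e-07). Adipoq differed from its nearest tissue, GM with 27.3, 39.1 and 6.62 FPKM, by 7.15 ± 0.44 (adjusted p = 1.6e-07), and by 11.31 from liver and 11.45 from hypothalamus. Retn, which encodes the hormone resistin, stood at 2001, 1641 and 1983 FPKM in iWAT and at 20.1, 22.9 and 4.48 in GM (7.06 ± 0.45, adjusted p = 2e-07). Lep encodes leptin, the hormone that signals fat mass to the hypothalamus. It was measured at 198, 198 and 159 FPKM in iWAT, at 2.02, 3.06 and 0.329 in GM and at 0.0128 or less in liver, and was listed at 0 in all 3 hypothalamus libraries (6.19 ± 0.30 against GM, adjusted p = 2.1e-08).

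Droplet proteins followed at like size. Cidec, whose product fuses droplets into the single large one of white adipocytes, stood at 1459, 1291 and 1565 FPKM in iWAT and at 12.8, 18.5 and 3.56 in GM (7.07 ± 0.39, adjusted p = 6.6e-08). Plin1, the coat protein that guards the droplet from lipases, stood at 1104, 787 and 876 FPKM in iWAT and at 10.5, 15 and 2.17 in GM (6.78 ± 0.44, adjusted p = 2.3e-07). Lipe, which encodes hormone-sensitive lipase and overlaps 4732471J01Rik on the other strand, stood at 766, 591 and 745 FPKM in iWAT and at 10.6, 17.1 and 8.14 in GM (5.81 ± 0.20). In all of these the lowest iWAT library lay above the highest of the 9 others many times over. Fabp4, the fatty acid carrier of adipocytes and the transcript second in abundance (3.55% of FPKM), had a smaller difference. It stood at 18771, 15843 and 16214 FPKM in iWAT, at 409, 450 and 222 in GM, and at 12.3 to 13 in liver (5.61 ± 0.21, adjusted p = 3.5e-09).

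The other genes among the 20 included Ifi27l2a, an interferon-induced gene that overlaps Ifi27 on the other strand (4069, 3923 and 4685 FPKM in iWAT, difference 6.90), and Ccl8, a chemokine (72.6, 183 and 153 FPKM, 6.2). Aoc3, an amine oxidase of the adipocyte surface (5.92), Lgals12, a galectin of lipid droplets (5.88), Adig, the small protein adipogenin (5.71), Retnla, a relative of resistin (5.70), and the glutamine transporter Slc1a5 (5.69) were also among them. The remaining genes were Tmem45b (6.08), Tusc5 (5.73), A530016L24Rik (5.65), Il1r2, a decoy receptor for interleukin-1 that overlaps Gm16894 on the other strand (5.6), and Serpina3c, a protease inhibitor (5.57). GM was the nearest tissue for all 20, and these genes moved together among its libraries: GM 2 held the highest GM level of 19 and GM 3 the lowest of all 20. As a percentage of the iWAT mean, the 20 genes had a median of 1.17 in GM 1, 1.66 in GM 2 and 0.302 in GM 3. The part of adjoining fat in the GM values was not tested.

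**Figure D2:**
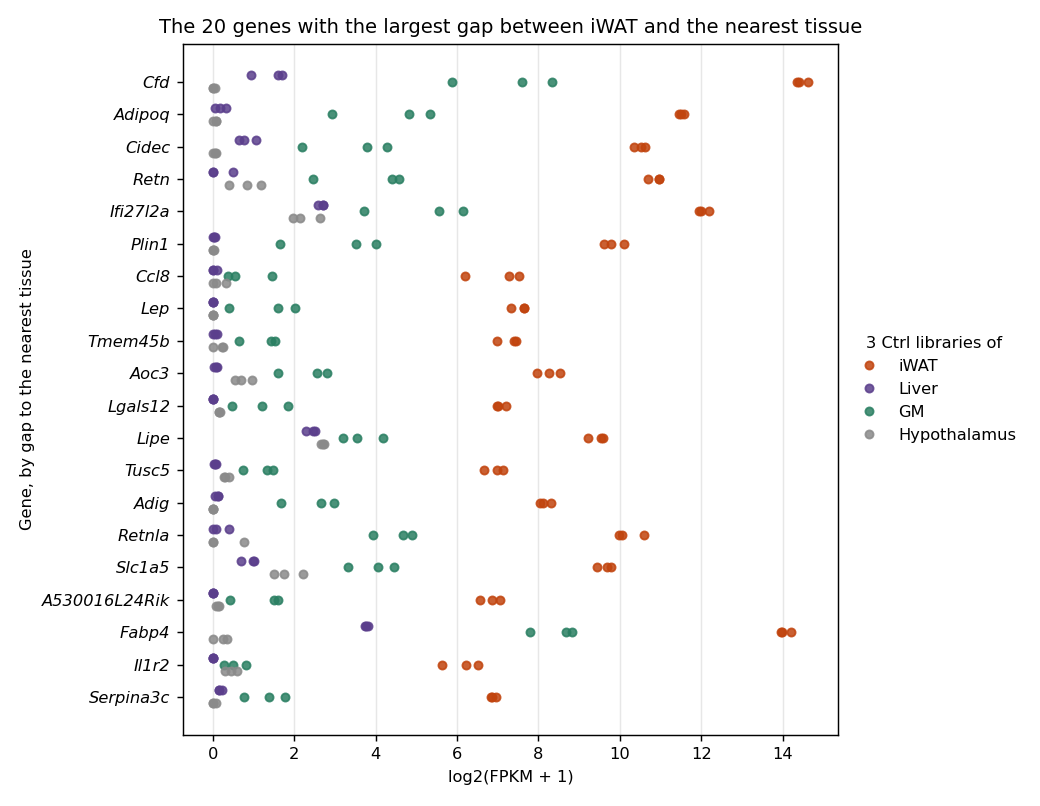
Levels of the 20 genes with the largest difference from the nearest tissue in each of the 12 Ctrl libraries, as log2(FPKM + 1). That the 3 iWAT libraries lie above all 9 others was a condition of the choice of these genes. GM 3 holds the lowest GM level of all 20.

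The promoters of several of these genes are shown because the genes move together and because C/EBP factors and PPARg, the master regulators of adipocyte genes, bind DNA motifs that can be searched for in them. Sequences are from RefSeq (GRCm38.p6), 5′ to 3′ on the strand of the gene, from 250 bases before the annotated start to 50 from it on. Capitals mark matches to the C/EBP motif TTNNGNAA on either strand. Adipoq lies at chr16:23146536-23157968 (plus strand; window chr16:23146286-23146585), Plin1 at chr7:79721164-79732776 (minus; chr7:79732727-79733026), Cidec at chr6:113424634-113435760 (minus; chr6:113435711-113436010), Lep at chr6:29060221-29073876 (plus; chr6:29059971-29060270), Retn at chr8:3655770-3659818 (plus; chr8:3655520-3655819) and Cfd at chr10:79890853-79892655 (plus; chr10:79890603-79890902).
Adipoq: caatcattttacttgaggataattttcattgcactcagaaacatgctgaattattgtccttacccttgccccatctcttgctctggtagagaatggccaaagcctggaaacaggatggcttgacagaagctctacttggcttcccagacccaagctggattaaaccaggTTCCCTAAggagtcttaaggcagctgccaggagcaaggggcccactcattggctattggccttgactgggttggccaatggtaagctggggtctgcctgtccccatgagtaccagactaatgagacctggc
Plin1: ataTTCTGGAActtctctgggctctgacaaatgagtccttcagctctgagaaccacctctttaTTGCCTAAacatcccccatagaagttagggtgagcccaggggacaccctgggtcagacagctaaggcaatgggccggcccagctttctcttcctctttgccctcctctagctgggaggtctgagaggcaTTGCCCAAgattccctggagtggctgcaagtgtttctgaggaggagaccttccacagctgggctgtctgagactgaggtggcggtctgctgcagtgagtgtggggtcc
Cidec: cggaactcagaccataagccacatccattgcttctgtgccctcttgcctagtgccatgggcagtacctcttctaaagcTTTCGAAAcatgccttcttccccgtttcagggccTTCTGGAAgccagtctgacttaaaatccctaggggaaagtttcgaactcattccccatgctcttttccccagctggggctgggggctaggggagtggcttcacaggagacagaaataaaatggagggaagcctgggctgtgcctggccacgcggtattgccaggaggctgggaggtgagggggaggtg
Lep: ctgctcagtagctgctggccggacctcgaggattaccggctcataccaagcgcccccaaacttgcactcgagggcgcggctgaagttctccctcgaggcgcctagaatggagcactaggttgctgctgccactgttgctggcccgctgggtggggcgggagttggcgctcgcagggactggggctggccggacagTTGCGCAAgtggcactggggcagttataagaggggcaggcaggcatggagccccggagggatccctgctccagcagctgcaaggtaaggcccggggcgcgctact
Retn: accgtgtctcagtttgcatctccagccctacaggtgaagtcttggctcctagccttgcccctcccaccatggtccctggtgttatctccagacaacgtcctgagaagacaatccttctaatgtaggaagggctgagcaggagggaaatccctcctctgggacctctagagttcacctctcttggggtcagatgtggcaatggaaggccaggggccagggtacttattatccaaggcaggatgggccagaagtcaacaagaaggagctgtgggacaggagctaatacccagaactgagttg
Cfd: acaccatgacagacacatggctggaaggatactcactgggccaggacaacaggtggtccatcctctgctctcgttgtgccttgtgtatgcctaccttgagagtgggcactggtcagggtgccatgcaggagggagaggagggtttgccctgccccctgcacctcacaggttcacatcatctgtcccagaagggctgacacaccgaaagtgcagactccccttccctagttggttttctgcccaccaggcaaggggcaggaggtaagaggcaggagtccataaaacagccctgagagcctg

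The Adipoq window held 1 match, at -81 to -74 from the start, the Lep window held 1, at -55 to -48, the Cidec window held 2 and the Plin1 window held 3, while the Cfd and Retn windows held 0. A window with this motif is common. It was found in 40.7% of all 32851 promoter windows, in 32.1% of those of the genes tested, in 37.0% of the 1191 windows of genes higher than every other tissue, and in 8 of the 14 windows of the 12 genes among the 20 that had one. The site of PPARg and RXR, searched on both strands as a direct repeat of AGGTCA with any base between the copies, was in 0.0396% of all windows and in 0 windows of the higher genes. TATAAA was in 13.6% of all windows, 8.08% of those of tested genes, 10.8% of those of higher genes and 21.4% of those of the 14. These matches describe the letters of the windows only, and a window was matched for 968 of the 1340 genes.

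Of the 20 genes of the lipid droplet and of lipolysis listed, all tested, 14 were higher in iWAT than in every other tissue, and the median difference of the 20 from the mean of the 3 tissues was 4.41 (0.20 over all genes tested). Beside the counts of this and later lists stand 1340 of all 15320 genes tested (8.75%). They became 915 after median-ratio scaling and 1007 after quantile normalisation. Pnpla2, the lipase of the first step of lipolysis, stood at 1176, 1082 and 1173 FPKM in iWAT and at 74.2, 81.3 and 84.2 in GM (3.82). Its inhibitor G0s2 (573, 298 and 311 FPKM in iWAT, difference 3.44), its activator Abhd5 (2.35) and Mgll, the lipase of the last step (370, 273 and 286 FPKM, 2.98), were higher too. So were Plin4, a coat protein (645, 541 and 648 FPKM in iWAT and 48.6, 64.2 and 81.2 in GM, 3.25), the glycerol channel Aqp7 (3.40) and the caveolar protein Cav1 (3.40). Plin2, the coat protein found in most cell types, was not called, at 311, 261 and 186 FPKM in iWAT against 258, 208 and 198 in liver (adjusted p = 1.0 against every other tissue), and those libraries overlapped.

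Genes that make fatty acids and triglyceride were listed as 20, with a median difference of 3.15 from the mean of the 3 tissues. Of the 20, 12 were higher than in every other tissue, 1 of them tested through iWAT alone. The count was 5 after median-ratio scaling, with Scd1, Dgat2 and Acly among those lost, and 12 after quantile normalisation. Fasn, fatty acid synthase, stood at 2040, 870 and 824 FPKM in iWAT and at 96.1, 74.4 and 65.1 in liver, its nearest tissue (3.86 ± 0.43, adjusted p = 2.7e-05). Acaca, which supplies its substrate (228, 127 and 124 FPKM in iWAT, 3.72), Thrsp, a spur to lipogenesis (2293, 1277 and 1338 FPKM, 3.45), and Scd1, the stearoyl-CoA desaturase (5270, 2758 and 2762 FPKM against 839, 773 and 625 in liver, 2.21), shared the pattern of a high iWAT 1 and like levels in iWAT 2 and iWAT 3. iWAT 1 was the highest iWAT library for 15 of the 20. Gpd1, which makes glycerol phosphate, lost its call without iWAT 1 (0.73), without GM 1 (0.96), after median-ratio scaling (0.22) and quantile normalisation (0.80), and with tissue pairs fitted alone. Dgat1 (2.79) and Dgat2 (1094, 549 and 631 FPKM in iWAT, 1.76), which close triglyceride synthesis, were also higher. Pck1, the gateway of glyceroneogenesis and gluconeogenesis, was at 1375, 786 and 1467 FPKM in iWAT and 605, 939 and 1100 in liver, which overlapped (0.45, adjusted p = 0.64).

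Uptake genes were higher in 6 of 14 (median 2.91), beside 8.75% of all genes tested. Lpl, which frees fatty acids from lipoproteins, stood at 2332, 1661 and 2035 FPKM in iWAT and at 189, 185 and 154 in GM (3.5). Cd36, a fatty acid transporter, stood at 951, 807 and 805 FPKM in iWAT and at 91.4, 90.4 and 82.4 in GM (3.26 ± 0.12, adjusted p = 2.4e-09). Slc2a4, the insulin-responsive glucose transporter, was not called. It was at 143, 87.1 and 102 FPKM in iWAT and at 207, 208 and 214 in GM, so every GM library lay above every iWAT library.

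Beside 8.75% of all genes tested, adipokines and other secreted factors were higher in 8 of 14 (median 3.03). Beside Adipoq, Cfd, Retn and Lep these included Nrg4, a growth factor of fat (33.1, 27.6 and 22.8 FPKM in iWAT, difference 3.56), Angptl4, an inhibitor of lipoprotein lipase (312, 250 and 369 FPKM, 1.98), and Metrnl (1.69). Rbp4, the retinol carrier, was at 335, 174 and 232 FPKM in iWAT and at 2568 to 2843 in liver. Nampt, an enzyme of NAD synthesis that is also secreted, differed by 0.03 from its nearest tissue.

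Adipogenic transcription factors were higher in 6 of 14 (median 2.2), beside 8.75% of all genes tested. The count was 4 after median-ratio scaling and 5 after quantile normalisation. Pparg, which encodes PPARg, stood at 133, 164 and 139 FPKM in iWAT and at 4.6, 3.34 and 1.86 in liver, its nearest tissue (5.15 ± 0.26, adjusted p = 2.9e-08). Cebpa stood at 456, 322 and 494 FPKM in iWAT and at 124, 137 and 113 in liver (1.74, and 0.80 and not called after median-ratio scaling), with no overlap. Ebf1 (3.33) and Ebf2 (2.81), factors of the adipocyte lineage, Twist1 (22.8, 22.3 and 27.2 FPKM in iWAT, 3.66) and Cebpd (1.32) made up the 6. Cebpd lost its call after median-ratio scaling (0.56) and quantile normalisation (0.72), without GM 1 (0.95), without iWAT 2 (1.14) and with tissue pairs fitted alone. Nr1h3, which encodes the sterol sensor LXRa, was at 58.1, 57.3 and 57.5 FPKM in iWAT and at 58.8, 58.8 and 59.9 in liver.

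Receptors of adipocytes were higher in 12 of 19 (median 3.47), beside 8.75% of all genes tested. The count was 10 after median-ratio scaling and 11 after quantile normalisation. Of the 12, 5 passed the filter on low values through iWAT alone. Adrb3, the adrenergic receptor that starts lipolysis in mouse fat, stood at 211, 205 and 289 FPKM in iWAT (5.12 against its nearest tissue). Receptors for fermentation acids, nicotinate, lactate and long-chain fatty acids were all among the higher ones, with Ffar2 at 49.1, 55.8 and 59.5 FPKM (5.37), Hcar2 (4.47), Hcar1 (4.14) and Ffar4 (4.12). Npr3, which clears natriuretic peptides (3.33), Npr1, which signals for them (2.04), the prostaglandin receptor Ptger3 (3.85), the activin receptor Acvr1c (3.21) and the growth hormone receptor Ghr (461, 423 and 525 FPKM in iWAT, 1.40) were higher as well, Ghr not after median-ratio scaling (0.46).

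The receptor complex of FGF21, a hormone secreted by the liver, belongs to this list. Klb, the co-receptor beta-Klotho, stood at 30.6, 22.4 and 20.6 FPKM in iWAT and at 6.5, 8.82 and 6.63 in liver, its nearest tissue. All 3 iWAT libraries lay above all 9 others, and the difference was 1.61 ± 0.15 (adjusted p = 4.5e-06). It fell under the limit of 1 after median-ratio scaling (0.74) and quantile normalisation (0.96). Fgfr1, the receptor itself, stood at 72.7, 89.7 and 105 FPKM in iWAT and at 30.4, 32.2 and 32.6 in hypothalamus (1.45 ± 0.12, adjusted p = 2.3e-06), again with no overlap.

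Brown and beige fat genes, 20 listed and 18 tested, were higher than in every other tissue for Ucp1, Cidea, Otop1 and Epsti1 only (4 of 18, beside 8.75% of all genes tested, with 2 of the 4 tested through iWAT alone), and the median difference of the 18 from the mean of the 3 tissues was 0.45. Ucp1, the uncoupling protein that makes heat in brown and beige mitochondria, had the widest range between iWAT libraries among the genes higher than every other tissue: 81.6, 31.4 and 4.5 FPKM in iWAT 1, 2 and 3, against 0.416, 0.286 and 0.338 in GM. Even iWAT 3 lay above all 9 other libraries, and the difference was 4.19 ± 0.69 (adjusted p = 0.00062). Cidea, a droplet protein of brown fat that overlaps B430212C06Rik on the other strand, had the same order of libraries, at 152, 97.5 and 40.2 FPKM against 6.11 to 8.33 in hypothalamus (3.41 ± 0.39), as did Otop1, a proton channel, at 10.8, 5.63 and 3.19 FPKM (2.52).

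Cox7a1 and Cpt1b, mitochondrial genes shared with muscle, had that order of libraries within iWAT too, and both stood higher in GM. Cox7a1, a subunit of cytochrome oxidase, was at 48, 23 and 6.47 FPKM in iWAT and at 618, 599 and 580 in GM. Cpt1b, the muscle form of the enzyme that admits fatty acids to mitochondria, was at 14.2, 7.25 and 1.73 FPKM in iWAT and at 117 to 127 in GM. Cpt1a, the liver form, was at 9.03, 19.0 and 14.7 FPKM in iWAT, with iWAT 1 the lowest, and at 58.3 to 69.9 in liver. Ppara, the regulator of fatty acid oxidation, was at 5.63, 3.21 and 4.41 FPKM in iWAT and at 21.8 to 25.8 in liver. Dio2, which activates thyroid hormone in brown fat, was at 1.01, 0.583 and 0.444 FPKM in iWAT.

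Stromal genes were higher than in every other tissue in 13 of 18 (median difference from the mean of the 3 tissues 3.98), and extracellular matrix genes in 20 of 23 (median 4.29), beside 8.75% of all genes tested. Gsn, which encodes the actin-severing protein gelsolin, was at 8489, 7796 and 8143 FPKM in iWAT (4.40). The progenitor markers Pi16 (306, 346 and 311 FPKM, 3.81) and Cd248 (98, 155 and 138 FPKM, 4.15), the secreted lectin Clec3b (449, 645 and 602 FPKM, 3.61), the proteoglycan Dcn (749, 1020 and 965 FPKM, 2.31) and the growth factor receptor Pdgfra (1.15, and not called without iWAT 2, at 0.99, or on TPM, at 0.91) were higher. Among matrix genes, the collagen chains Col1a1 (425, 968 and 693 FPKM in iWAT, 3.89) and Col3a1 (1027, 2057 and 1476 FPKM, 4.33) and periostin, Postn (65.2, 191 and 103 FPKM, 3.93), were highest in iWAT 2 and lowest in iWAT 1. iWAT 2 was the highest iWAT library for 16 of the 18 stromal genes and for 18 of the 23 matrix genes. Fn1, fibronectin, was not called, at 186, 366 and 297 FPKM in iWAT and 248 to 266 in liver, which overlapped.

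Complement genes were higher in 5 of 14 (median 3.35), beside 8.75% of all genes tested. The count was 3 after median-ratio scaling and 4 after quantile normalisation. Cd59a, an inhibitor of the attack complex, lost its call without iWAT 1 or Liver 3. Beside Cfd they included C7, a part of the membrane attack complex (63.5, 76.1 and 78.4 FPKM in iWAT, 4.0), and Cfp, properdin (61.7, 148 and 106 FPKM, 2.71). C3, the central component, was at 639, 762 and 849 FPKM in iWAT and at 1565 to 1939 in liver. Hormone receptors and steroid or retinoid enzymes were higher in 2 of 14 tested, the estrogen receptor Esr1 and the retinol binding protein Rbp7 (median 0.84), a share near the 8.75% of all genes. Esr1 lost its call after median-ratio scaling and after quantile normalisation (0.59 in both).

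Blood endothelial genes were higher in 5 of 14 (median 1.5), beside 8.75% of all genes tested, and in 0 after either rescaling. Emcn and Pecam1, surface proteins of these cells, also lost their calls without iWAT 2, without iWAT 3 or without 1 GM library. Lymphatic endothelial genes, 7 listed and 5 tested, were higher for Lyve1 alone (1 of 5, beside 8.75% of all genes tested, median -0.36). Lyve1, a hyaluronan receptor that macrophages carry too, was at 23.6, 55.7 and 59.8 FPKM in iWAT (3.61). Prox1, the defining factor of lymphatic vessels, was at 0.0106 FPKM or less in iWAT. Smooth muscle and pericyte genes were higher for Cspg4 and Mcam, both surface proteins of pericytes, of 10 tested (median 1.12), beside 8.75% of all genes tested.

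Macrophage and monocyte genes were the list with the fullest count, with a median difference of 3.68 from the mean of the 3 tissues. Of 18 tested, 18 were higher than in every other tissue, 1 of them tested through iWAT alone. After either rescaling 17 were, with Timd4, a receptor for dying cells, lost. The summed level of the list ran from 1601 to 3599 FPKM in iWAT, against 198 at most in the other tissues. Lyz2, lysozyme, stood at 507, 1339 and 838 FPKM in iWAT (4.04), Cd68, a lysosomal protein, at 38.7, 139 and 62.1 (3.59), and C1qa, a chain of the first complement component, at 200, 389 and 326 (3.21). iWAT 2 was highest in each. The lectins of resident macrophages differed as well, with Clec10a at 77.5, 156 and 140 FPKM (5.01), Mgl2 at 61.7, 75.9 and 96.8 (4.51) and Mrc1, the mannose receptor, at 38.1, 73.8 and 61.2 (2.73). The remaining member, the integrin Itgax, was below the level for testing, at 0.864, 4.05 and 1.21 FPKM.

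Neutrophil and mast cell genes, 13 listed and 8 tested, were higher for 5 proteases: Elane, a neutrophil enzyme, and the mast cell enzymes Cpa3 (15.5, 26.9 and 24.9 FPKM in iWAT, 3.57), Mcpt4 (37, 53.8 and 57.3 FPKM, 3.83), Cma1 and Tpsb2 (median of the 8 tested 2.79). Of the 5, 1 was tested through iWAT alone, and 8.75% of all genes tested were higher. The neutrophil granule genes Ngp and Camp were listed at 0 in all 3 iWAT libraries.

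Genes of lymphocytes and of the lymph node were at low levels in iWAT, though their sums lay above those of liver and hypothalamus. B cell genes, 15 listed, were under 1 FPKM in all 3 iWAT libraries for 13, and their sum was 6.33 to 7.81 FPKM in iWAT, 2.23 to 3.94 in liver, 0.393 to 12.3 in GM and 1.81 to 2.28 in hypothalamus. Cd79a, a chain of the B cell receptor complex, was at 0.973, 0.378 and 0.857 FPKM. Of 3 B cell genes tested, the scaffold Bank1 was higher than in every other tissue, which it was not after either rescaling (median 0.68). Bank1 passed the filter on low values through iWAT alone. T and NK cell genes, 23 listed and 11 tested, were higher for Cd2, an adhesion receptor whose call was lost without GM 3 and after median-ratio scaling (0.77) or quantile normalisation (0.64), and for Nkg7 and Gzma, both of cytotoxic granules (3 of 11, and 2 after either rescaling, beside 8.75% of all genes tested, with all 3 tested through iWAT alone; median 0.64), and their sum was 17.8 to 31.8 FPKM in iWAT against 16.9 at most in the 9 other libraries. Cd3e, a chain of the T cell receptor complex, was at 0.974 FPKM or less. Of the lymph node stroma and homing genes, 10 listed, 9 in the tables and 4 tested, the B cell chemokine Cxcl13 was higher, at 25.6, 31.4 and 31.7 FPKM in iWAT and 0.993 to 1.25 in liver (3.85 ± 0.17, adjusted p = 1.1e-08; median of the 4 tested 0.67). The summed level of the 9 was 31.3 to 39.2 FPKM in iWAT, most of it Cxcl13, against 11.8 at most in the other libraries. Ccl19, a chemokine of the T cell zone, was at 1.98, 2.58 and 3.72 FPKM in iWAT and at 1.73, 2.94 and 3.46 in hypothalamus, which overlapped. Ccl21a, the chemokine that draws T cells into nodes, was at 0.332 FPKM or less in iWAT, the vessel adhesion gene Madcam1 was at 0.281 or less, and Glycam1 and Chst4, genes of the high endothelial venule, were listed at 0 in all 3 iWAT libraries.

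Mammary and glandular epithelium, 24 genes, was near the floor in iWAT. In the 3 iWAT libraries 20 of the 24 stayed under 1 FPKM, and 7 of these were listed at 0: the keratins Krt14 and Krt17, the milk protein genes Csn1s1, Csn1s2a, Csn2 and Wap, and the growth factor Areg. The 24 genes summed to 6.18 to 7.96 FPKM in iWAT and 275 to 381 in liver. Krt19, a keratin of glands, was at 1.25, 1.77 and 1.47 FPKM, Cdh1, the adhesion protein of epithelia, at 0.392 or less, and 0 of 7 genes tested were higher than in every other tissue (median -1.15). Epidermal genes, 10 listed, 9 in the tables and 7 tested, were higher for Krt79, Krtdap, Sbsn and Dmkn (4 of 7, median 1.72). This count stood beside 8.75% of all genes tested, and 2 of the 4 were tested through iWAT alone. Sbsn, suprabasin, was at 29.4, 40.2 and 39.8 FPKM (2.43), while the epidermal keratins Krt1 and Krt15 were listed at 0 in iWAT. Xist, the transcript of the inactive X chromosome of female cells, was at 0.0183 FPKM or less in every library. Ddx3y, a gene of the Y chromosome, was at 10.3 to 18.7 FPKM in the 12 libraries, so all were read as male. The part of sex in the low mammary levels was not tested.

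Blood genes, 11 listed and 6 tested, were higher than in every other tissue for 0 (median 0.60), and summed to 601 to 1643 FPKM in iWAT and 446 to 1239 in hypothalamus. Hba-a2, an alpha-globin gene, was at 251, 702 and 510 FPKM in iWAT and at 244, 176 and 482 in hypothalamus, which overlapped. Globin genes have near-identical copies, so their single values are uncertain.

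**Figure D3:**
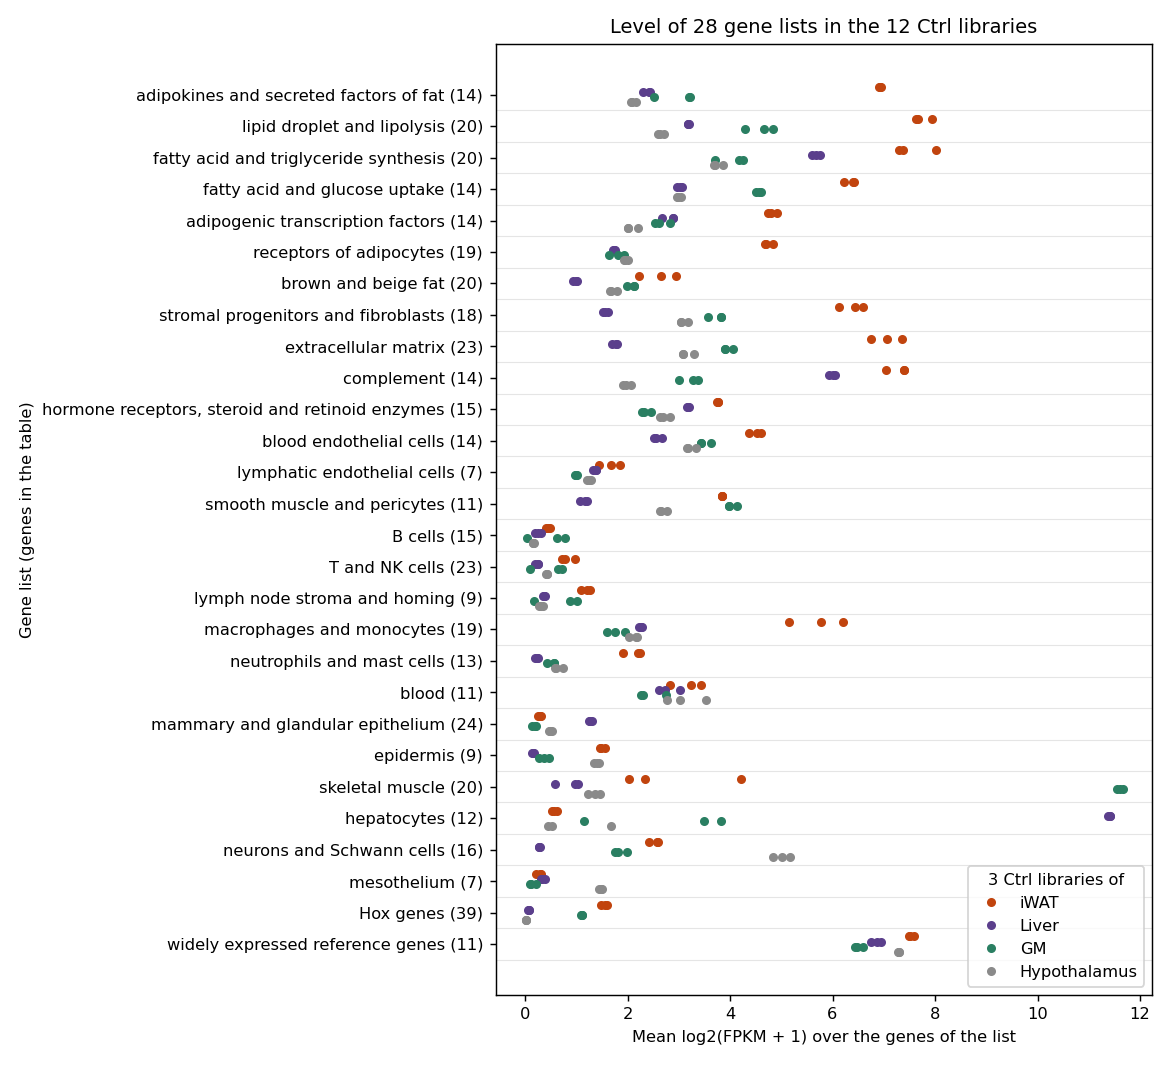
Mean log2(FPKM + 1) over the genes of each list in each of the 12 Ctrl libraries. The fat, stromal, matrix and macrophage lists lie higher in the 3 iWAT libraries than in the 9 others, whereas the B cell list lies at 0.78 or less in all 12 libraries and the mammary list at 0.31 or less in iWAT, below liver (1.25 to 1.31).

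Among lists of neighbouring tissues, skeletal muscle genes summed to 104 to 906 FPKM in iWAT and to 156865 to 169256 in GM (0 of 20 higher, median difference -1.72 from the mean of the 3 tissues and -8.94 from GM). Acta1, skeletal actin, was at 173, 28.5 and 18.6 FPKM in iWAT 1, 2 and 3 and at 23443, 27517 and 28054 in GM, and Ckm, muscle creatine kinase, was at 108, 15.5 and 9.74. iWAT 1 was the highest for all 20 genes, as it was for Cox7a1, Cpt1b and Ucp1. The part of muscle tissue in the levels of these 3 genes in iWAT 1 was not tested. Hepatocyte genes were higher for 0 of 12 (median -4.29), and Ttr, the thyroxine carrier, was lower in iWAT than in every other tissue, a call that was lost without any 1 of the iWAT libraries (-2.26 to -2.29), without Hypothalamus 2 or 3 (-2.34 and -2.06), after median-ratio scaling (-1.85) or quantile normalisation (-1.47), with tissue pairs fitted alone and with ordinary variances (-2.27 in both). Nerve genes, 16 listed and 15 tested, were higher for the sodium channel Scn7a (3.02) and the myelin protein Pmp22 (172, 188 and 211 FPKM in iWAT, 1.82), with a median of -0.28, and 2 of 15 is near the 8.75% of all genes tested. Mesothelial genes, 8 listed, 7 in the tables and 2 tested, were higher for 0 (median -1.33), and Wt1, Upk1b and Bnc1 were listed at 0 in iWAT. Widely expressed reference genes were higher than in every other tissue for 0 of 11 (median 0.51). Their mean level was nevertheless above all 9 other libraries in every iWAT library, as it was for 19 of the 28 lists on the deposited FPKM and for 12 after median-ratio scaling.

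Hox genes encode factors that set position along the body axis, and adult tissues keep part of that pattern. Of 39 Hox genes, 26 were tested and 13 were higher in iWAT than in every other tissue (median difference 1.69 from the mean of the 3 tissues), with 9 after median-ratio scaling and 6 after quantile normalisation. Hoxc8 differed most, at 33.2, 23.4 and 28.4 FPKM in iWAT and 0.595, 0.516 and 0.27 in GM, and was listed at 0 in liver and hypothalamus (4.32 ± 0.12 against GM, adjusted p = 5.6e-10). Hoxc6 followed at 24.3, 20.2 and 20.4 FPKM in iWAT and 2.24, 2.35 and 2.37 in GM (2.77). The others called were Hoxb6 (1.93), Hoxb2 (1.91), Hoxb7 (1.82), Hoxb4 (1.54), Hoxb3 (1.5), Hoxc5 (1.48), Hoxb5 (1.47), Hoxb8 (1.3), and Hoxa7, Hoxc9 and Hoxd4 (1.07 each). Of the 13, 9 passed the filter on low values through iWAT alone, so the count and the median describe these libraries and lend no support. All 13 carry paralog numbers from 2 to 9.

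The Hox genes that were not called went either way between iWAT and GM. Hoxa9 had a mean of 4.91 FPKM in iWAT and 2.92 in GM, and Hoxa3 of 3.16 and 1.24, while Hoxa4 had 1.11 and 2.16. Hoxc10 was at 18.7, 15.2 and 16.4 FPKM in iWAT and at 32.9, 29.9 and 34.9 in GM, so the hind limb muscle held more. Hoxa10 was at 7.04, 7.51 and 7.25 FPKM in iWAT and 7.94, 7.66 and 7.31 in GM, which overlapped. Hoxd8 was at 5.36, 7.52 and 7.9 FPKM in iWAT and at 20.4, 18.8 and 18.5 in GM. Hoxc11 had a mean of 0.0805 FPKM in iWAT and 4.27 in GM, Hoxa11 of 0.0109 and 2.07, and Hoxd10 of 0.115 and 2.14. The plot of Hox levels by paralog number shows the iWAT line above the GM line in the middle of the Hoxb and Hoxc clusters and below it at the high paralog numbers of Hoxa, Hoxc and Hoxd.

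**Figure D4:**
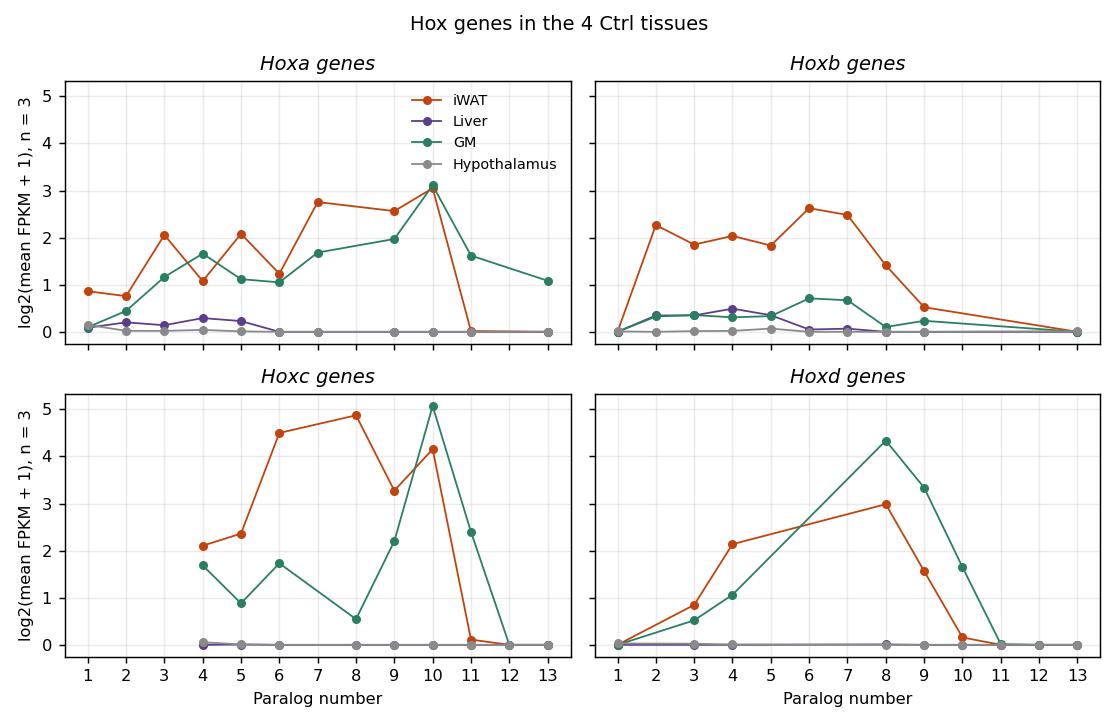
Level of each Hox gene as log2(mean FPKM + 1) over 3 libraries by paralog number, in 1 panel for each of the 4 Hox clusters, for iWAT, GM, liver and hypothalamus. iWAT leads at Hoxc6 and Hoxc8 (2.77 and 4.32 above GM), GM leads at Hoxc10 and Hoxc11, and liver and hypothalamus lie near 0.

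Fewer genes marked iWAT by a low level. The 57 genes lower than in every other tissue had the liver as their nearest tissue in 23 cases, GM in 17 and the hypothalamus in 17. The 10 with the largest difference were led by Slc38a3, a glutamine transporter, at 0.439, 0.117 and 0.306 FPKM in iWAT, 577, 470 and 539 in liver, 43.3, 41.7 and 52.3 in GM and 37.4, 39.8 and 43 in hypothalamus (-5.00 ± 0.12, adjusted p = 5.2e-10). In the same 3 libraries another glutamine transporter, Slc1a5, was among the 20 genes of largest excess (821, 695 and 877 FPKM).

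Both aspartate transaminases of the malate-aspartate shuttle were among the 10. Got1, the cytosolic enzyme, was at 5.3, 8.09 and 6.48 FPKM in iWAT and at 67.7 to 178 in the 9 other libraries (-3.49 ± 0.15, adjusted p = 1.1e-08). Got2, the mitochondrial enzyme, was at 13.2, 16.9 and 14 FPKM in iWAT and at 101 or more elsewhere (-2.78 ± 0.09, adjusted p = 1.2e-09). Bdh1, an enzyme of ketone body metabolism, was at 0.11 and 0.12 FPKM in iWAT 1 and 2 and listed at 0 in iWAT 3, against 13.2 FPKM or more elsewhere (-3.87). Atp1b1, a subunit of the sodium pump that overlaps Nme7 on the other strand, was at 1.59, 2.6 and 1.67 FPKM in iWAT, 21.2 to 24.4 in liver and 485 to 527 in hypothalamus (-3.04). The others were Car14, a carbonic anhydrase (-3.37), Tuba4a, a tubulin (-3.34), Fam134b, a receptor for turnover of endoplasmic reticulum (-3.00), Ociad2 (-2.83) and Enho, which encodes a secreted peptide (-2.78). Car14, Tuba4a and Enho overlap a gene on the other strand, and the library kit does not keep strand.

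More genes had a wide range between libraries in iWAT than in the other tissues. The range between replicates exceeded 1 on the log2 scale for 504 genes in iWAT (3.29% of genes tested), 343 in GM (2.24%), 269 in hypothalamus (1.76%) and 127 in liver (0.829%). Of the 504, 312 were highest in iWAT 2, 121 in iWAT 1 and 71 in iWAT 3, and 325 were lowest in iWAT 1, 73 in iWAT 2 and 106 in iWAT 3. Of the genes higher than every other tissue, the 10 of widest range held 2 sets and 2 other genes. Ucp1, Cidea and Acly, the enzyme that makes acetyl-CoA for lipid synthesis (765, 252 and 171 FPKM in iWAT against 113, 82 and 67.6 in liver; 1.90 ± 0.46, adjusted p = 0.01), were highest in iWAT 1. Acly lost its call after median-ratio scaling (0.95) and with tissue pairs fitted alone.

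The macrophage gene Gpnmb (7.54, 43.1 and 12.4 FPKM in iWAT; 3.47, adjusted p = 6.2e-05), the heme oxygenase gene Hmox1 (29.2, 116 and 43.3), the galectin gene Lgals3 (51.4, 189 and 63.9), the protease inhibitor gene Timp1 (2.26, 11.1 and 4.73, its call lost without iWAT 2, after either rescaling and with tissue pairs fitted alone) and Ms4a7 (5.8, 23.1 and 11.8) were highest in iWAT 2. The summed macrophage list rose in that library as well, and its part in these differences was not tested. Neither set held Jchain, the joining chain of secreted antibodies (9.47, 1.4 and 4.51 FPKM, its call lost after quantile normalisation and with tissue pairs fitted alone), or C5ar1, a complement receptor (7.68, 3.18 and 17.8 FPKM), both of which were lowest in iWAT 2.

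**Figure D5:**
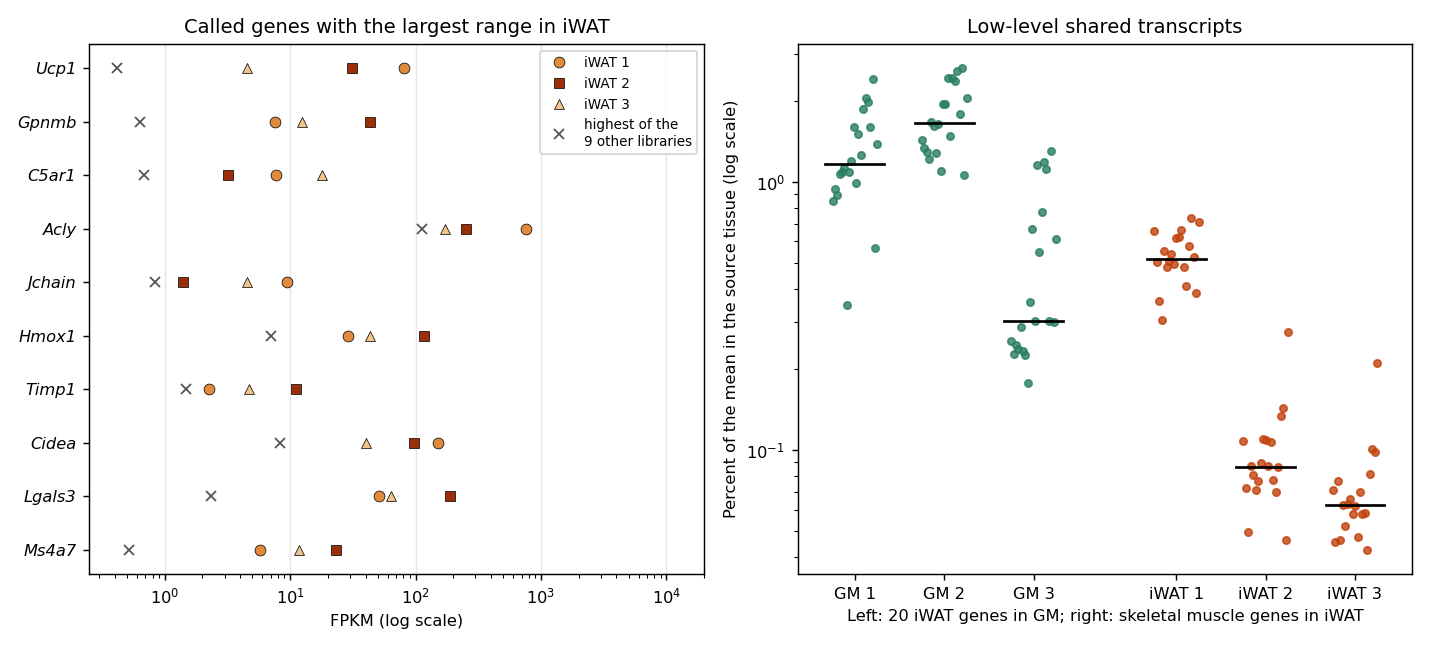
Left, the 10 genes with the widest range between iWAT libraries among those higher than every other tissue, as FPKM on a log axis, with the highest of the 9 other libraries as a cross. Right, the 20 genes of largest excess in each GM library as a percentage of their iWAT mean, and skeletal muscle genes in each iWAT library as a percentage of their GM mean, on a log axis with the median as a line (1 muscle gene below 0.001% in each iWAT library is not drawn); the medians are 1.17, 1.66 and 0.302 in GM and 0.518, 0.0867 and 0.0622 in iWAT.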

How the data were processed

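RNA-seq of total RNA (TRIzol, TruSeq RNA Library Prep Kit v2, which keeps no strand; paired-end reads) was deposited for each library as gene tables. Per the labels, FastQC (0.11.5), Trimmomatic (0.32), HISAT2 (2.0.5), Bowtie2 (2.2.6), STAR (2.5.2b) and StringTie (1.3.3b) were used with the mm10 build; which tool made which value is not given in the sources used here. The authors made the FPKM values, which are scaled per length and per library but not between tissues, and the TPM values, used here as an alternative. The deposited coverage (signal) served only for depth, which limits the precision of low genes. No table of read counts was used, so no count test was run.

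FPKM of the 12 Ctrl libraries were analysed as log2(FPKM + 1). Of 24532 genes, the 15320 with at least 1 FPKM in at least 3 libraries were fitted with limma (3.58.1, R 4.3.3) on the 4 tissue means with a variance trend, and p-values were adjusted by Benjamini-Hochberg over all of them. The pseudocount understates the change of low genes. For every other tissue, the largest of the 3 p-values with a shared sign was used, and a call needed an adjusted p below 0.05 and a difference of at least 1. The procedure was tested on simulated data.

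Named were Adipoq, the 20 largest excesses without overlap, the 10 largest deficits, the 10 widest iWAT ranges among higher genes, members of 28 gene lists (449 genes, 363 tested, 3 absent from the tables: Fdcsp, Flg and Muc16), and thermogenic, oxidation and receptor genes of interest to the study. Lists carry counts and medians only. The comparison, the members and the lists were chosen with earlier results of these data known. Alternatives were other scalings, pseudocounts, filters, TPM, variances, a larger difference, tissue pairs fitted alone, a replicate block and leaving out each library. Whether same-numbered libraries come from 1 mouse is not stated. The LKO libraries were not used here.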

Additional observations from a re-analysis of the deposited data

How the results depend on the processing

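Of 199 named genes called, 162 were called in every alternative in which they were tested, other than a difference of at least 2, 37 lost the call in at least 1, and 0 reversed (167 of the 199 were tested when a mean of 5 FPKM was asked for). Median-ratio scaling cost 30 calls and quantile normalisation 24, and leaving out iWAT 1, 2 or 3 cost 3, 6 and 3. Counts of genes higher and lower than every other tissue were 1340 and 57. They became 526 and 19 at a difference of 2, and 804 genes were higher when a mean of 5 FPKM was asked for. Median-ratio scaling gave 915 higher and 119 lower, and quantile normalisation 1007 and 110. With a pseudocount of 0.1 they were 1509 and 133. Against the mean of the 3 tissues (2963 and 2012) they were 1883 and 84 with the 9 libraries as 1 group, and 1114 and 613 at a difference of 2. Against liver (4986 and 1294) they were 2559 and 2233 with median-ratio scaling, 2515 higher with quantile normalisation, and 1799 and 837 at a difference of 2. Against GM (4742 and 1236) they were 2628 and 2341, 2557 and 2189, and 1747 and 643 in the same order. Against hypothalamus (2483 and 4391) they were 1141 and 2216 at a difference of 2, with 2317 lower at that mean of 5 FPKM. Fewer genes can pass the larger difference or the higher filter by construction, and the cause of the other shifts was not tested. The lists whose level lay above all 9 other libraries in every iWAT library numbered 19, 12 after median-ratio scaling and 19 to 20 without 1 iWAT library.

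Without 1 library at a time, 1271 to 1395 genes were higher and 53 to 64 lower than every other tissue, 2910 to 3073 and 1992 to 2029 against the mean, 4894 to 5081 and 1289 to 1310 against liver, 4624 to 4883 and 1200 to 1291 against GM, and 2432 to 2517 and 4334 to 4432 against hypothalamus. With the replicate block the counts were 1341 and 58 for every other tissue. Deviations of same-numbered libraries correlated at -0.114 to 0.234 (median 0.078), with 6 of 18 pairs above 0.1. Those of different-numbered libraries correlated at -0.173 to 0.089 (median -0.026), with 0 of 36 pairs above 0.1. Of 12 libraries, 11 had a higher mean correlation with their own number than with the others, a hint of pairing from the data only. The labels state no pairing, so the numbers were not taken to pair the libraries. Depth limits genes below about 1 FPKM, and near-identical copies such as the globin genes may share reads.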

Other observations

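The genes of this paragraph were chosen after their values were seen. H2-Aa, a chain of an MHC class II molecule, stood at 352, 521 and 497 FPKM in iWAT 1, 2 and 3 and at 8.39 to 25.3 in the 9 other libraries, a difference of 4.51 ± 0.26 on the log2(FPKM + 1) scale from GM, its nearest tissue (limma adjusted p = 8e-08). Cd74, the invariant chain that escorts these molecules, stood at 722, 990 and 1025 FPKM in iWAT and at 17.3 to 59.6 elsewhere (4.24 ± 0.25 from liver, adjusted p = 1e-07). In both, iWAT 1 was the lowest iWAT library, as it was for the macrophage genes Lyz2, Cd68 and C1qa, and no iWAT library overlapped the others. B2m, the light chain of MHC class I and a member of the reference list, was at 2541, 2836 and 2663 FPKM in iWAT and at 1339 to 1369 in liver, and its difference of 0.99 ± 0.10 fell just short of a call.

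Tshr, the receptor of thyroid-stimulating hormone, stood at 47.8, 40.5 and 44 FPKM in iWAT and at 0.657 or less in the 9 other libraries (4.81 ± 0.13, adjusted p = 5.6e-10). Dpt, a matrix protein gene, was among the most even, with 709, 727 and 712 FPKM in iWAT and 21.6 to 33.8 in GM (4.64 ± 0.17, adjusted p = 3.4e-09). Car3, a carbonic anhydrase gene, took 2.4% of all iWAT FPKM, at 12058, 10563 and 11662, yet liver (1935 to 3311) and GM (1650 to 2557) held much of it too (2.22 ± 0.26 from liver, adjusted p = 4.3e-05, a call lost with tissue pairs fitted alone). Apoe, an apolipoprotein gene, was at 4998, 5735 and 5726 FPKM in iWAT and at 14130 to 15371 in liver.

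Trem2, a receptor of lipid-laden macrophages and of microglia, was at 5.02, 39.7 and 9.22 FPKM in iWAT, highest in iWAT 2, and at 8.48 to 9.5 in hypothalamus, so it overlapped and was not called (0.46 ± 0.51, adjusted p = 1.0). Fkbp5 and Zbtb16, both induced by glucocorticoids, had another order, with 10.2, 22.6 and 53.1 FPKM and 16.5, 7.22 and 37 FPKM in iWAT 1, 2 and 3. Both were highest in iWAT 3 and neither was called.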
